A study of Mus musculus with 3 samples.

Results

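The 10 genes described here carry out the presentation of peptides on major histocompatibility complex (MHC) class I, among 32285 genes in the count matrices. They were taken by symbol, and each symbol matched 1 row: *H2-K1* and *H2-D1*, the classical class I heavy chains, *B2m*, their shared light chain, *Tap1* and *Tap2*, the peptide transporter, *Tapbp*, which encodes the tapasin of the loading complex, *Psmb8*, *Psmb9* and *Psmb10*, the catalytic subunits of the immunoproteasome, and *Nlrc5*, a transactivator of class I genes. Their levels were read in keratinocytes of the epidermis, of the hair matrix and of the bulge, the upper follicle region that holds hair stem cells, with the other skin populations beside them. The skin came from the backs of female C3H/HeN mice aged 25 weeks. In the alopecia areata (AA) model, hair loss was induced by transfer of cultured skin-draining lymph node cells from affected donors. The control library (Neg) came from mice labelled as negative, vehicle controls, the AA library from AA mice, and the AA+Ab library from AA mice given an antibody that neutralizes the chemokine CXCL12. Skin of 7 to 8 mice was pooled in each group, so every group was 1 library without a replicate.

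MHC class I molecules display peptides from proteins made inside the cell to CD8+ T cells. Cytosolic proteins are cut by the proteasome, the peptides are pumped into the endoplasmic reticulum by the transporter, and tapasin helps to load them onto heavy chains bound to β2-microglobulin. Interferon-γ raises the transcription of these genes in most cells, in part through IRF1 and NLRC5, and exchanges the constitutive catalytic subunits of the proteasome for the immunoproteasome subunits. The growing hair follicle, in its matrix, and the bulge are textbook sites of immune privilege, where class I is kept low, and loss of that state is a long-standing model of AA.

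After the filters, 6215 cells were kept in Neg, 9525 in AA and 9006 in AA+Ab, with medians of 13234, 10718 and 10883 unique molecular identifiers (UMIs, which count captured mRNA molecules) per cell. Pairs of libraries shared 14 to 23 cell barcodes. Levels are given as CPM, the UMIs of a gene per 1000000 UMIs of the same cells, with 95% Poisson intervals, and ratios with exact conditional intervals; both cover counting error only and say nothing of the spread between mice or libraries. No test between groups is possible with 1 library in each, and a gene was counted as higher or lower when its CPM differed by at least 1.5-fold. The mice carry the H-2k haplotype while the reads were aligned to a genome with H-2b alleles, and class I genes have near-identical relatives, so the *H2-K1* and *H2-D1* counts are uncertain and may hold reads of related class I genes.

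Epidermal keratinocytes numbered 2561 in Neg, 3856 in AA and 3613 in AA+Ab, and hair matrix keratinocytes 516, 585 and 770. The hair matrix cluster passed 7 of 8 matrix markers, among them *Wif1*, *Lef1*, *Msx1* and *Hoxc13*. The bulge was represented by cluster 11, which held 101, 311 and 144 cells and passed 7 of 9 outer bulge and root sheath markers, including *Cd34*, *Lhx2*, *Lgr5* and *Sox9*. *Krt6a*, a companion layer keratin, was among its 10 leading genes by fold and none of the bulge markers was, so it is called by its number. Markers of cluster 11 also differed between libraries, without a common direction within a list. *Krt14*, a basal layer keratin, stood at 3418 CPM in Neg, 3207 in AA and 10217 in AA+Ab. *Krt6a* was at 335, 231 and 864, and *Lgr5* at 594, 839 and 381. In AA+Ab, *Krt5* and *Thbs1* were above Neg, but *Col17a1* (1072, 850 and 772 CPM), *Itgb4*, *Itga6*, *Itga3* and *Lamb3* were below it. Of the companion layer keratins, *Krt16* was above Neg there and *Krt75* below. In AA, *Sox9*, *Postn* and *Tnc* were above Neg like *Lgr5*, and *Barx2*, *Krt15*, *Cd34*, *Lhx2* and *Fgf18* were below. The part of these differences in the values below was not tested.

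Promoter sequences show what the promoters of the members share and where they differ. RefSeq windows of 300 bases (250 before and 50 after the start of transcription, GRCm38.p6, the C57BL/6J sequence) matched 8 of the 10 genes; *Tap2* and *Nlrc5* had none. Searches on both strands covered 4 motifs: the interferon-stimulated response element (ISRE, here GAAA, any 2 bases and GAAA again), the shorter IRF-binding GAANNGAAA, the STAT-binding GAS element TTCNNNGAA, and TGACG, the core of cyclic AMP response elements that is also found in class I promoters. They were held by 3.44%, 7.52%, 8.3% and 20.8% of all 32851 RefSeq promoter windows. The windows of *H2-K1*, *B2m*, *Psmb8* and *Psmb10* are shown because these genes stand for the heavy chain, the light chain, the member with the largest AA ratio in the hair matrix and the member nearest to equal there. Capitals mark every match, and the windows are chr17:34000298-34000597 (minus strand), chr2:122147437-122147736 (plus strand), chr17:34197945-34198244 (plus strand) and chr8:105938343-105938642 (minus strand).
H2-K1: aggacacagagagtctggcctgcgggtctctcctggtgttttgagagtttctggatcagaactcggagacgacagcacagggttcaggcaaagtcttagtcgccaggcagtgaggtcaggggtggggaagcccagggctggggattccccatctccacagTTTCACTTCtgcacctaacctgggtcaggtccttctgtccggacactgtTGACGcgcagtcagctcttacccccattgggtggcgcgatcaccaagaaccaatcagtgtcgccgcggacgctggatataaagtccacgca
B2m: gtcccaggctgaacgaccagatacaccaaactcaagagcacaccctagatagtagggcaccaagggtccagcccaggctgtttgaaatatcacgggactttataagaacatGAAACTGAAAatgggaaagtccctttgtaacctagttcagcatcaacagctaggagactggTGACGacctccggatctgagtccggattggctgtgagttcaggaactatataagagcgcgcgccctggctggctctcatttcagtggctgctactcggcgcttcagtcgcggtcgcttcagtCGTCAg
Psmb8: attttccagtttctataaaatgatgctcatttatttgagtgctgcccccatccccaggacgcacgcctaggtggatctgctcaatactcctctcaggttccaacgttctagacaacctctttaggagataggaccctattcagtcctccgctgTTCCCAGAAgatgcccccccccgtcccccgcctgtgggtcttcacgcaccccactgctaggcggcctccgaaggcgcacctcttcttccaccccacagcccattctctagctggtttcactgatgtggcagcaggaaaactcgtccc
Psmb10: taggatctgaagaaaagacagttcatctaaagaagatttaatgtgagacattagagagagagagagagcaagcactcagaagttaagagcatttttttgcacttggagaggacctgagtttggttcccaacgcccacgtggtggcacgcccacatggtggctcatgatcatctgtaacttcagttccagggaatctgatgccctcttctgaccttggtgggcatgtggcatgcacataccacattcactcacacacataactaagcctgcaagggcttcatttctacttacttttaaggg
The *H2-K1* window held 1 GAANNGAAA match, and so did that of *H2-D1*. Among the 8 genes the ISRE was matched only in the *B2m* window, and TTCNNNGAA only in that of *Psmb8*. A TGACG match was found for 5 of the 8 genes, *H2-K1*, *H2-D1*, *B2m*, *Tap1* and *Psmb9*. *Tap1* and *Psmb9* are transcribed away from each other, their windows overlap by 275 bases, and their TGACG match is the same stretch of DNA read on opposite strands. No 2 matches within a window overlapped. *Psmb10* and *Tapbp* held no match to any of the 4 motifs. These are matches of letters, not sites shown to be bound.

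In control skin, 9 of the 10 class I genes were lower in the hair matrix than in the epidermis of the same library, and cluster 11 lay between them for all but *Psmb10*. *B2m* stood at 1311 CPM (1300.0 to 1323) in the epidermis, 318 (287 to 352) in cluster 11 and 83.0 (78.3 to 87.9) in the hair matrix. *H2-K1* followed the same order at 1182, 232 and 97.7 CPM, and so did *Psmb8* at 193, 26.4 and 4.62. Of the 10 genes, 9 were lower in the hair matrix than in the epidermis, with a median ratio of 0.0685, where 24.8% of all genes with enough UMIs were lower by that rule. The exception was *Psmb10*, at 52.0 CPM (48.3 to 55.9) in the hair matrix against 22.1 (20.7 to 23.7) in the epidermis and 9.90 in cluster 11. In cluster 11, 8 of the 10 genes were lower than in the epidermis (14.2% of all genes), with a median ratio of 0.243, and *Tap2* and *Tapbp* were within 1.5-fold. In root sheath keratinocytes (530, 983 and 1215 cells), none of the 10 genes was 1.5-fold from the epidermis in Neg, where 13.6% of all genes were higher and 9.84% lower. The ratios of *Nlrc5* (1.39, 1.29 to 1.499), *Tap2* (1.33, 1.17 to 1.51) and *Psmb8* (0.850, 0.794 to 0.910) left out equality by counting error. So did those of *H2-K1* (0.883, 0.859 to 0.907), *H2-D1* (0.904, 0.879 to 0.930) and *B2m* (1.05, 1.03 to 1.07). That class passed 3 of 9 outer bulge and root sheath markers (*Barx2*, *Postn* and *Sox9*), and none was among its 10 leading genes.

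**Figure D1:**
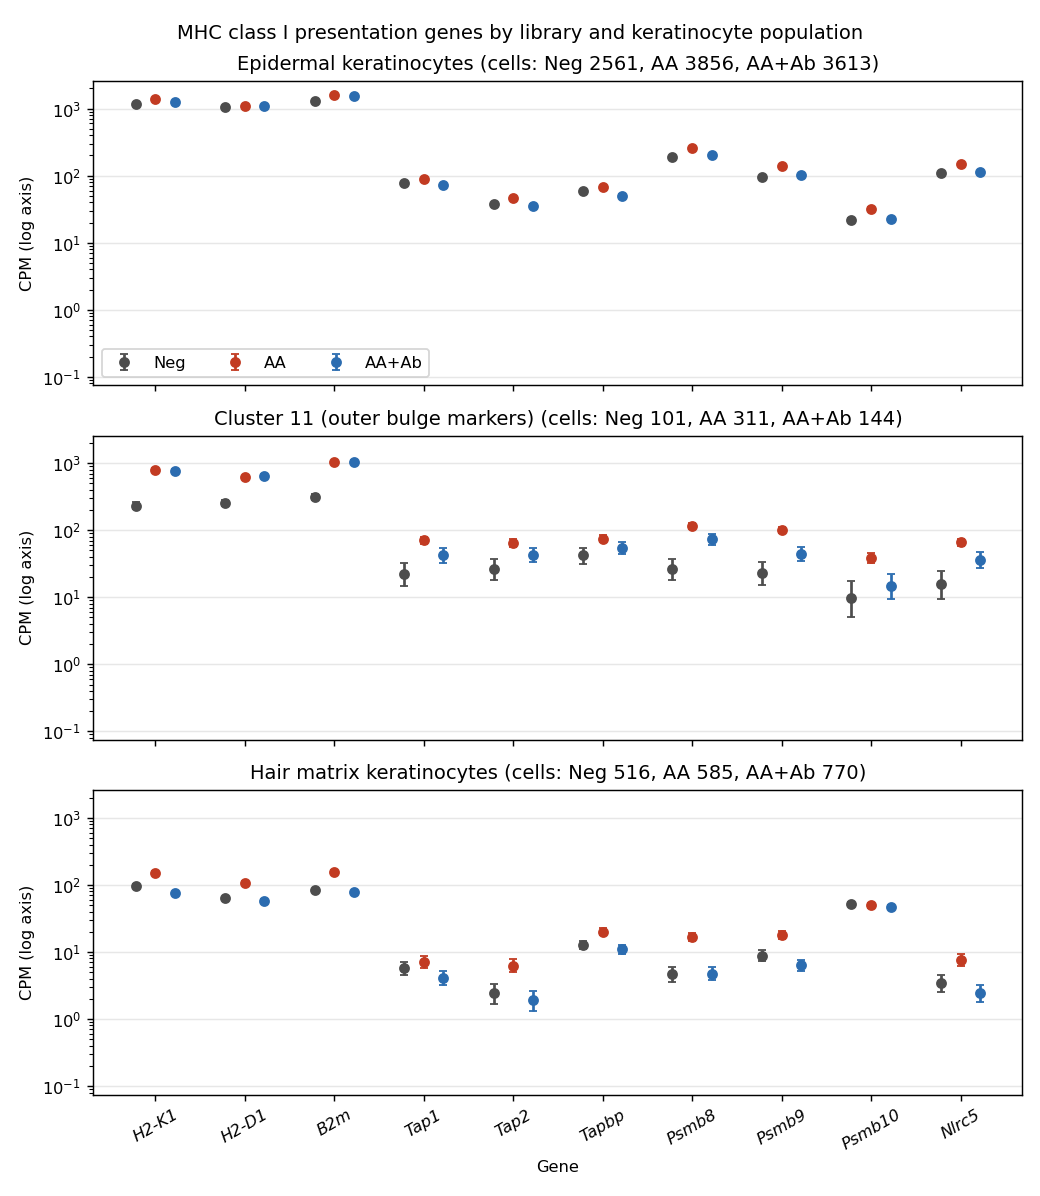
CPM of the 10 genes (y axis, log scale) in epidermal keratinocytes, cluster 11 and hair matrix keratinocytes, with a point for each library and bars for the 95% Poisson interval, which covers counting error only. In cluster 11 every AA point lies above its Neg point, and in the hair matrix *Psmb10* is the only gene above its epidermal level, at 52.0 CPM in Neg.

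In AA, all 10 genes were at least 1.5-fold higher in cluster 11 than in Neg, with a median ratio of 3.38, where 9.52% of all genes were higher. The heavy chains and their light chain carried the most UMIs. *H2-K1* went from 232 CPM (206 to 261) in Neg to 805 (776 to 835) in AA, and was 762 (719 to 807) in AA+Ab. *B2m* was 318 CPM (287 to 352), 1049 (1016 to 1083) and 1050 (999 to 1102) in the same order, and *H2-D1* was 254, 620 and 640. Both disease libraries were thus above Neg for these 3 genes, by 2.44-fold to 3.47-fold in AA, and their intervals did not overlap with that of Neg. 

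The peptide transporter and the loading factor rested on fewer UMIs, 27 to 51 in Neg. *Tap1* was 22.3 CPM (14.7 to 32.4) in Neg, 70.8 (62.5 to 80.0) in AA and 42.4 (32.8 to 53.9) in AA+Ab. *Tap2* was 26.4, 64.3 and 43.0 CPM, a ratio of 2.43 (1.68 to 3.64) for AA over Neg. *Tapbp* had the smallest ratio of the 10, 1.77 (1.31 to 2.44), from 42.1 CPM in Neg to 74.7 in AA. The order AA, AA+Ab, Neg held for these 3 genes, although the AA+Ab and Neg intervals of *Tap2* and *Tapbp* overlapped.

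The immunoproteasome subunits and *Nlrc5* had the largest ratios of AA over Neg in cluster 11. *Psmb8* was 26.4 CPM (18.1 to 37.3) in Neg and 116 (105 to 127) in AA, a ratio of 4.39 (3.06 to 6.50). *Psmb9* was 23.1 and 101 CPM, a ratio of 4.38 (2.98 to 6.68). *Psmb10* rested on 12 UMIs in Neg and 141 in AA, with 9.90 and 38.6 CPM and a ratio of 3.90 (2.16 to 7.72). *Nlrc5* went from 15.7 CPM (19 UMIs) to 66.4, a ratio of 4.24 (2.66 to 7.16). All 4 intervals of the ratio lay above 2.

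The count in AA depended on which cells were taken for the bulge. With root sheath keratinocytes added to cluster 11, a choice made after seeing the data, 1 of the 10 genes was past 1.5-fold. Root sheath keratinocytes alone had none past it in AA over Neg, with a median ratio of 1.15, where 4.99% of all genes were higher. At the finer resolution of 1.5, cluster 11 split into a subcluster with 82, 209 and 122 cells that passed 7 outer bulge and root sheath markers and another with 19, 102 and 22 cells that passed 4. *H2-K1* was 253 CPM in Neg, 1117 in AA and 837 in AA+Ab in the former, and 118, 301 and 153 in the latter. In the former alone, all 10 genes were again higher in AA than in Neg, with a median log2 ratio of 2.11. With classes from the marker UMIs of each cell, 7 of 10 were, with a median log2 ratio of 0.73 in place of 1.76.

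In the hair matrix, 8 of the 10 genes were at least 1.5-fold higher in AA than in Neg, where 2.3% of all genes were. The median ratio was 1.80, smaller than in cluster 11. *B2m* was 83.0 CPM (78.3 to 87.9) in Neg, 158 (151 to 164) in AA and 77.0 (73.0 to 81.1) in AA+Ab. *H2-K1* was 97.7, 153 and 75.2 CPM, a ratio of 1.56 (1.46 to 1.68) for AA over Neg, and *H2-D1* was 62.7, 107 and 57.2. For these 3 genes AA was above both other libraries.

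*Psmb8* had the largest ratio in the hair matrix, 3.64 (2.75 to 4.87), with 4.62 CPM (65 UMIs) in Neg, 16.8 (224 UMIs) in AA and 4.76 (88 UMIs) in AA+Ab. *Psmb9* was 8.82, 18.0 and 6.33 CPM, a ratio of 2.04 (1.64 to 2.56). *Tap2*, at 2.42, 6.23 and 1.89 CPM, differed by 2.58-fold (1.71 to 3.96), and *Nlrc5*, at 3.41, 7.59 and 2.43 CPM, by 2.22-fold (1.56 to 3.20). *Tapbp* was 12.7, 20.1 and 10.9 CPM. The 2 genes within 1.5-fold were *Tap1*, at 5.76, 7.14 and 4.11 CPM with a ratio of 1.24 (0.911 to 1.69), and *Psmb10*, at 52.0, 49.3 and 46.5 CPM with a ratio of 0.949 (0.853 to 1.06). Of the 3 immunoproteasome subunits, *Psmb8* and *Psmb9* were past 1.5-fold in the hair matrix and *Psmb10* was not, while all 3 were past it in cluster 11; the difference between the subunits was not tested. The constitutive subunits that they replace, *Psmb5*, *Psmb6* and *Psmb7*, had log2 ratios of -0.03, -0.07 and -0.05 in the hair matrix and none passed 1.5-fold. In cluster 11 none of the 3 passed it in AA over Neg (9.52% of all genes were higher). There 1 of the 3 was higher in AA+Ab than in Neg (6.72% of all genes), and 2 were higher in AA+Ab than in AA (6.4%).

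This result depends on the treatment of doublets, droplets with more than 1 cell. With likely doublets kept, the hair matrix class held 610, 671 and 922 cells and 3 of the 10 genes were 1.5-fold higher in AA, with a median log2 ratio of 0.46 in place of 0.85. With every cell thinned to 1000 UMIs it was 5 of 10.

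Epidermal keratinocytes had small differences in the same direction. None of the 10 genes reached 1.5-fold in AA over Neg, where 2.84% of all genes were higher and 6.1% lower, and the median ratio was 1.21. *B2m* was 1311 CPM in Neg, 1591 (1579 to 1603) in AA and 1522 in AA+Ab, and *H2-K1* was 1182, 1403 and 1276. *Psmb10*, with 22.1, 32.1 and 22.2 CPM, came nearest, at a ratio of 1.45 (1.33 to 1.58), followed by *Psmb9* at 1.42 (1.37 to 1.48) and *Nlrc5* at 1.37. *H2-D1* was nearest to equal, at 1.06. At these cell numbers the intervals of all 10 genes lay above a ratio of 1, which shows only that counting error is small, not how much 2 pools of mice differ.

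**Figure D2:**
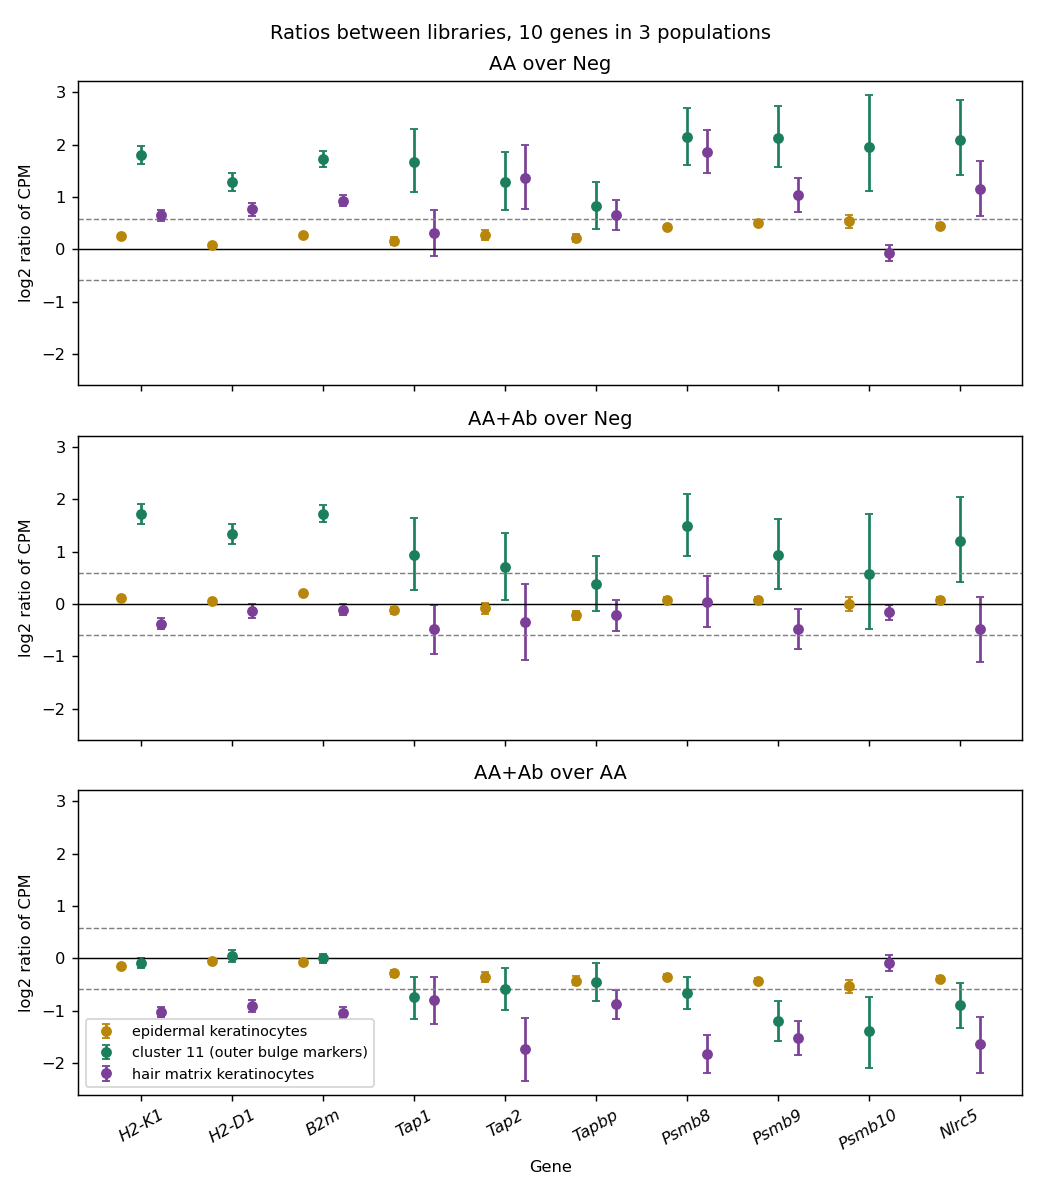
log2 ratio of CPM (y axis) of each of the 10 genes for AA over Neg, AA+Ab over Neg and AA+Ab over AA, in epidermal keratinocytes, cluster 11 and hair matrix keratinocytes. Bars are 95% exact conditional intervals (counting error only) and dashed lines mark 1.5-fold; in AA over Neg all 10 cluster 11 points and 8 of 10 hair matrix points lie above the upper line, and no epidermal point does.

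Within the AA library the distance between follicle and epidermis was smaller than within Neg. The median ratio of cluster 11 to the epidermis was 0.243 in Neg, 0.695 in AA and 0.595 in AA+Ab, and the number of genes lower in cluster 11 was 8, 5 and 7 (14.2%, 12.5% and 15.4% of all genes). The hair matrix stayed far below the epidermis in each library, with median ratios of 0.0685, 0.104 and 0.0550 and 9 of 10 genes lower each time (24.8%, 23.8% and 24.4% of all genes). *B2m* in the hair matrix was 6.33% of its epidermal level in Neg, 9.90% in AA and 5.06% in AA+Ab.

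The AA+Ab library shares its comparators with the comparisons above, so its values are given side by side and not as independent evidence. In the hair matrix, 9 of the 10 genes were at least 1.5-fold lower in AA+Ab than in AA, where 8.38% of all genes were lower, and the median ratio was 0.490. *Psmb8* had the smallest ratio, 0.283 (0.218 to 0.363), and *Psmb10* was the gene within 1.5-fold, at 0.942 (0.850 to 1.04). Against Neg, none of the 10 genes in the hair matrix was past 1.5-fold in AA+Ab (1.31% of all genes were higher and 7.02% lower), and the median ratio was 0.819. With doublets kept, 5 genes were lower in AA+Ab than in AA, with a median log2 ratio of -0.69 in place of -1.03. The largest differences against Neg were those of *Nlrc5*, *Tap1* and *Psmb9*, each with a log2 ratio between -0.49 and -0.48.

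Cluster 11 was different in AA+Ab. Against Neg, 8 of the 10 genes were still higher, where 6.72% of all genes were, with a median ratio of 2.10, and *Tapbp* (1.30) and *Psmb10* (1.49) were below the limit. With root sheath keratinocytes added none was past 1.5-fold, and at 2-fold 5 were. Against AA, 5 genes were lower, where 17.8% of all genes were lower, 6.4% were higher and the median log2 ratio of all genes was -0.12: *Psmb10* at 0.383 (0.235 to 0.598), *Psmb9* at 0.438 (0.334 to 0.568), *Nlrc5* at 0.541 (0.397 to 0.726), *Tap1* at 0.598 (0.450 to 0.787) and *Psmb8* at 0.637 (0.514 to 0.784). The heavy and light chains were near equal in AA+Ab and AA: *B2m* had a ratio of 1.00 (0.944 to 1.06), *H2-D1* of 1.03 (0.958 to 1.11) and *H2-K1* of 0.947 (0.884 to 1.01). These 5 calls depended on the choice of cells: with classes from the marker UMIs of each cell none of the 10 genes passed 1.5-fold, and without cells that held an immune marker UMI 2 did. In the epidermis no gene passed 1.5-fold against Neg (1.43% of all genes higher, 5.76% lower) or against AA (3.58% higher, 5.41% lower), with median ratios of 1.04 and 0.784.

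Class I levels were also read in other follicle populations. Cluster 6, which held 411, 419 and 532 cells with hair matrix and root sheath markers and is unnamed, had 7 of 10 genes higher in AA than in Neg (1.73% of all genes), with a median ratio of 3.01. There *H2-K1* was 53.8, 180 and 65.3 CPM, *Psmb10* was 46.5, 41.3 and 33.5, and 9 genes were lower in AA+Ab than in AA (4.74% of all genes). Inner root sheath cells (328, 258 and 278) had 7 of the 10 genes past 1.5-fold. The share of all genes there, 2.33%, covers only genes with at least 100 UMIs, which 8 of the 10 had. *Nlrc5*, at 3.81, 7.99 and 1.63 CPM, was among the 7 and had fewer. *Psmb8* was 3.92, 13.6 and 3.75 CPM. By the *Krt1* and *Krt10* estimate described below, epidermal RNA carried into other droplets could bring up to 3.89 of those 3.92 CPM in Neg, 4.79 in AA and 3.40 in AA+Ab. In cluster 6 the same estimate for *Psmb8* in Neg (3.78 CPM) was above the measured 2.28. Upper hair follicle keratinocytes, which lie above the bulge, had 2 genes higher (9.43% of all genes), *Psmb9* and *Psmb10*. Cluster 20 (63, 73 and 52 cells) stayed unnamed with under 3 markers, and *Krt24* and *Tnc* were among its leading genes. It had 1 of the 10 genes higher in AA than in Neg (6.21% of all genes), with a median ratio of 1.21. There 8 of the 10 genes had at least 100 UMIs. 
Melanocytes, the pigment cells that sit beside the hair matrix, numbered 35 in Neg, 51 in AA and 45 in AA+Ab. All 10 genes had a ratio of at least 1.5 for AA over Neg there, where 11.7% of all genes were higher, but only 4 of them had 100 UMIs over the 3 libraries. *B2m* was 664 CPM in Neg, 1865 in AA and 896 in AA+Ab, *H2-K1* was 131, 715 and 108, *H2-D1* was 168, 895 and 268, and *Psmb8* was 13.6, 149 and 20.3. AA was above both other libraries for these 4 genes. Cluster 14 passed all 4 melanocyte markers and stayed unnamed for its low UMIs per cell. It held 305 cells in Neg, 36 in AA and 120 in AA+Ab, so most cells with melanocyte markers in Neg were in another cluster than most in AA. There *B2m* was 853, 1315 and 1143 CPM and *H2-K1* was 868, 1304 and 677.

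**Figure D3:**
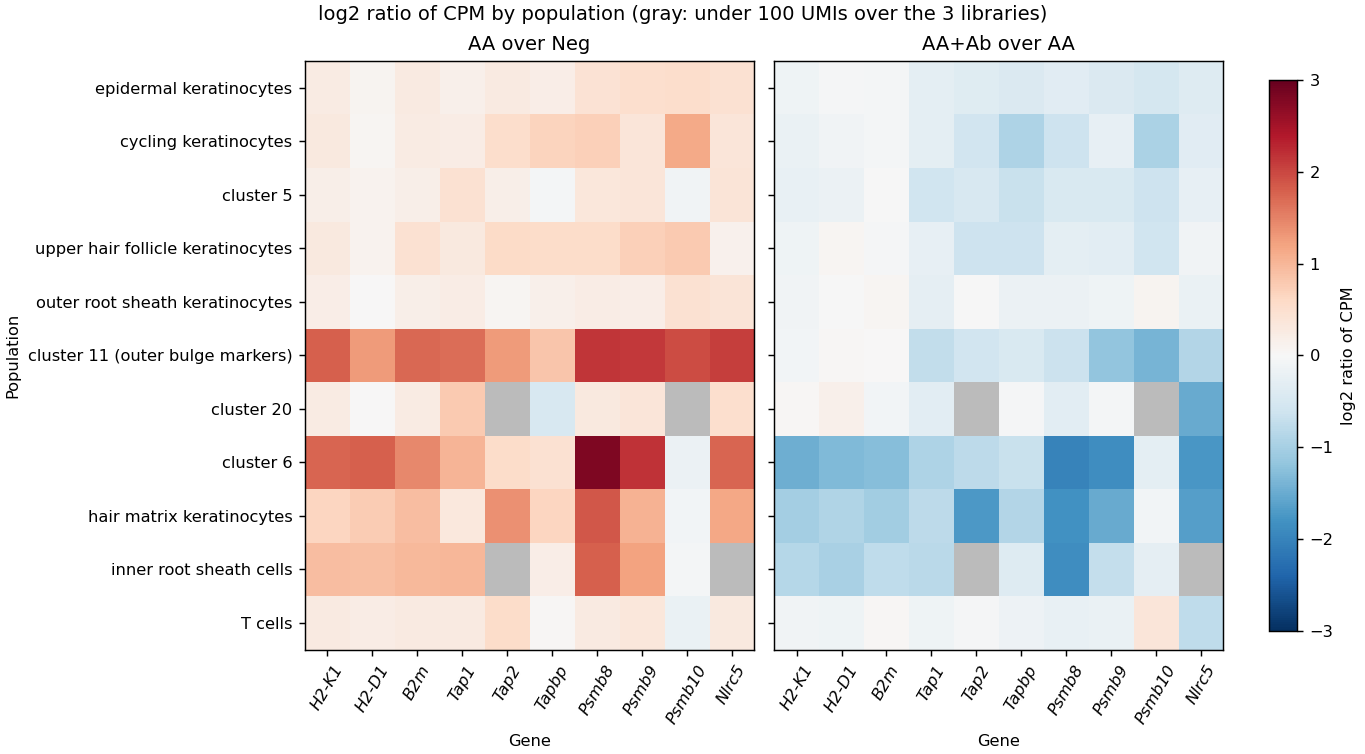
log2 ratio of CPM of each of the 10 genes (columns) in 11 populations (rows) for AA over Neg (left) and AA+Ab over AA (right), with red for higher, blue for lower and gray for genes with under 100 UMIs. Melanocytes are not drawn. On the left, 7 or more of the 10 genes are past 1.5-fold in cluster 11, cluster 6 and the hair matrix. In the inner root sheath some of the 10 are gray. On the right, *H2-K1*, *H2-D1* and *B2m* are near 0 in cluster 11 and blue in the hair matrix.

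The summed UMIs of the 10 genes per 10000 UMIs of a cell showed how the differences were spread over cells. In cluster 11 the median cell had 5.24 in Neg, 12.6 in AA and 9.93 in AA+Ab, and the 95th percentile was 29.9, 102 and 73.2. In the hair matrix the medians were 2.63, 3.58 and 2.31, while the 95th percentiles were 7.95, 17.2 and 7.25. Of hair matrix cells, 16.8% in AA and 4.03% in AA+Ab were above the 95th percentile of Neg. The same shares were 28.3% and 27.8% in cluster 11 and 17.4% and 10.9% in the epidermis. In the epidermis the medians were 42.3, 47.7 and 44.8. The depth of cells differed, with medians of 10437, 8240 and 8988 UMIs in cluster 11 and 25332, 21937 and 24538 in the hair matrix. With each cell thinned to 1000 UMIs, which left out 0 to 2 cells of cluster 11 and 1 to 5 of the hair matrix per library, the mean sum was 0.960, 2.61 and 2.29 in cluster 11 and 0.330, 0.503 and 0.298 in the hair matrix. The 95th percentile was then 3.05, 9.5 and 9 in cluster 11 and 2, 2 and 1 in the hair matrix. The hair matrix median was 0 in each library. The higher 95th percentile of AA in the hair matrix was thus not seen at that depth, where sums are a few UMIs.

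**Figure D4:**
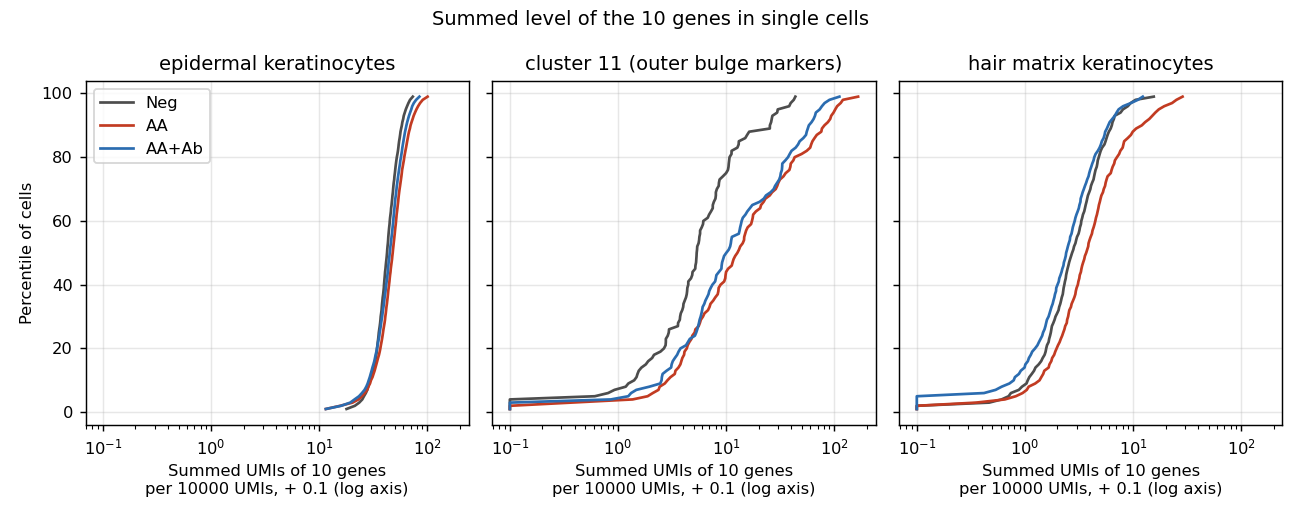
Percentile of cells (y axis) against the summed UMIs of the 10 genes per 10000 UMIs of the cell plus 0.1 (x axis, log scale) in epidermal keratinocytes, cluster 11 and hair matrix keratinocytes, with a line for each library. In cluster 11 the median and 95th percentile of AA (12.6 and 102) and AA+Ab (9.93 and 73.2) lie to the right of Neg (5.24 and 29.9), and in the hair matrix the 95th percentile of AA is 17.2 against 7.95 in Neg and 7.25 in AA+Ab.

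Regulators of the pathway were read from lists beside the 10 genes. *Irf1*, an interferon-induced transcription factor of class I genes, is given as a single gene that does not stand for its list, and was 21.4 CPM in Neg, 76.6 in AA and 20.5 in AA+Ab in cluster 11. In the hair matrix it was 44.6, 68.7 and 32.5 CPM, and in the epidermis 33.9, 70.8 and 72.3. AA was thus at least 1.5-fold above Neg for *Irf1* in all 3 populations, and AA+Ab was at the AA level in the epidermis only. *Ifng* itself had too few UMIs in these keratinocytes to be compared. In cluster 11, 1 of the 4 receptor and JAK genes with enough UMIs was higher in AA than in Neg (9.52% of all genes). It was *Jak1*, a kinase of the interferon receptors, at 102, 197 and 121 CPM. Of this list, 1 of 5 was higher in AA in the epidermis (2.84% of all genes) and 0 of 5 in the hair matrix (2.3%). In AA+Ab over AA, 2 of 5 were lower in the hair matrix (8.38%) and 1 of 4 in cluster 11 (17.8%).

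Nonclassical class I genes, which are relatives with narrower roles, were counted by the same rule. In cluster 11, 2 of the 3 with enough UMIs were higher in AA (9.52% of all genes), *H2-T22* (33.8, 83.4 and 41.1 CPM) and *H2-Q4* (21.4, 46.8 and 31.5), and *H2-T23* was 89.1, 121 and 109. In the hair matrix none of 5 was higher in AA (2.3% of all genes), and all 5 were lower in AA+Ab than in AA (8.38% of all genes). In the epidermis, 3 of 11 were higher in AA than in Neg (2.84% of all genes) and 2 of 11 in AA+Ab than in Neg (1.43%). The proteasome activator genes *Psme1* and *Psme2* were higher in cluster 11 in AA, at 75.9 against 135 CPM and 66.0 against 106, and had log2 ratios of 0.32 and 0.35 in the hair matrix. General chaperones and peptide loading factors were counted too: in cluster 11 none of 6 reached 1.5-fold in AA over Neg, and *Calr*, *Canx* and *Pdia3* had log2 ratios of 0.07, 0.15 and -0.15. In AA+Ab over Neg 1 of the 6 was higher there (6.72% of all genes). In the hair matrix 1 of 7 was higher than in Neg in AA (2.3% of all genes) and 1 of 7 in AA+Ab (1.31%).

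The genes most like the members were ranked by Pearson's r with the mean of the standardized log2 levels of the 10 genes. Each gene was centred and scaled over 59 points, each a population in 1 library, which share libraries and depth. The 10 highest were *H2-T23* (0.953), *H2-T22* (0.937), *Klf6*, *Dusp1*, *Hivep2*, *H2-Q4*, *Galnt7*, *Clec2d*, *Stat3* and *Pfkp* (0.888). Of the members themselves, *Psmb10* followed the mean least, with r of 0.069, and the other 9 had r between 0.894 and 0.983. Each member is part of that mean, which raises its own r.

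Immune cells carry far more class I RNA than the hair matrix, so the markers of immune cells were read in the same keratinocytes. A list of 12 immune markers summed to 79.2 CPM in Neg, 28.4 in AA and 55.2 in AA+Ab in cluster 11, and to 14.2, 11.5 and 9.41 in the hair matrix, against 4054, 6287 and 5443 in T cells. In cluster 11, *Trac*, *Cd8a* and *Fcer1g* were at 0 in Neg, *Cd8a* in AA, and *Cd3g*, *Trac*, *Tyrobp* and *Laptm5* in AA+Ab; in the hair matrix, *Cd8a* was at 0 in Neg and AA+Ab. The sums of Neg rested on few cells: in cluster 11, *Cd3g* had 28 of the 96 UMIs in 3 cells, and in the hair matrix *Lyz2* had 55 of 199 in 7 cells. The share of cells with a UMI of the list was 20.8%, 20.9% and 23.6% in cluster 11 and 19.2%, 15.9% and 13.4% in the hair matrix. Without cells holding a UMI of the list, 9 of the 10 genes in cluster 11 and 8 in the hair matrix were higher in AA than in Neg.

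RNA set free from epidermal cells can enter any droplet. *Krt1* and *Krt10*, keratins of the suprabasal epidermis, stood in the hair matrix at 2.11% of their epidermal level in Neg, 1.67% in AA and 1.52% in AA+Ab. If all of that was carried over with the class I RNA of epidermal cells, it would bring 4.07 of the 4.62 CPM of *Psmb8* in Neg, 4.34 of 16.8 in AA and 3.09 of 4.76 in AA+Ab, and 2.30 of 3.41, 2.49 of 7.59 and 1.73 of 2.43 CPM of *Nlrc5*. The hair matrix levels of *Psmb8* and *Nlrc5* in Neg and AA+Ab are therefore near this estimate. For *Tap2*, the lowest of the 10 genes in both libraries, it was 0.80 of 2.42 CPM in Neg and 0.54 of 1.89 in AA+Ab. For *B2m* it was 27.7 of 83.0 CPM in Neg. The estimate rests on *Krt1* and *Krt10*, so RNA set free from cells without these keratins was not measured. With the estimate subtracted, a choice made after seeing the data, 8 of the 10 genes were higher in AA than in Neg, with a median log2 ratio of 1.17.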

How the data were processed

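Droplet-based 3′ single-cell libraries were made from pooled dorsal skin, and the authors used Cell Ranger 7.2.0 with the mm10 genome (per the submitters' processing notes, which also name FastQC 0.11.7). The deposited values are raw UMI counts per gene and barcode. Whether intron reads were counted is not given in the sources used here.

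Cells were kept at a mitochondrial share of UMIs up to 10% with at least 200 detected genes. Likely doublets, scored by their nearness to simulated ones with scikit-learn 1.9.0, were then left out at 0.8% per 1000 barcodes (367, 908 and 826 of 6582, 10433 and 9832). Cells of the 3 libraries were clustered together with Seurat 5.3.0 in R 4.3.3 (2000 variable genes, 30 principal components, resolution 0.8), leaving 40 immune response genes, members included, out of the variable genes. Clusters with markers of several classes or leading genes of another stayed unnamed. Cluster 11 was an exception: it had *Krt6a* among its leading genes, but was kept for the bulge because it passed most outer bulge and root sheath markers. A cluster was named when at least 3 markers were found in 25% of its cells at 2 times the level of other cells. Counts were summed by library and class with Python 3.11.15, numpy 2.4.6, scipy 1.17.1 and pandas 2.3.3, and genes needed 100 UMIs over the 3 libraries. The ratio step was tested on simulated data: of 200 genes changed 2-fold up or down, 189 passed 1.5-fold in the right direction among 7713 genes in cluster 11, and 197 among 11295 in the hair matrix. The simulated counts were Poisson draws from a pooled profile of each class. They held no spread between mice or libraries, so this covers counting error only.

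The members, marker lists and pathway lists were chosen with earlier results of these data known. The counts for the list of transcription factors, and 1 of its genes, are not reported here. The named genes are all 10 members, pathway genes from 6 lists (the 4 with the most UMIs of each, and others chosen after their values were seen) and the 10 genes most like the members. *Tapbp* overlaps *Zbtb22*, and *Nlrc5* overlaps *Mir7072*, on the same strand, and *Tap1* overlaps *Psmb9* on the other. Depth was 105304297, 116173885 and 118806423 UMIs in kept cells, but 12 UMIs in all for *Psmb10* in cluster 11 of Neg.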

Additional observations from a re-analysis of the deposited data

Results flagged for a closer look

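Some of the 10 genes differed by at least 1.5-fold in opposite directions in 2 populations under the same comparison, with counting intervals that left out equality; the difference between populations was not tested, and small populations are among them. In AA over Neg, *H2-K1* had a log2 ratio of 2.45 in melanocytes and -0.95 in skeletal muscle cells (where epidermal RNA could bring up to 134 of 172 CPM in Neg and 30.2 of 88.7 in AA, so that the direction there is not settled), *B2m* 1.72 in cluster 11 and -0.66 in dermal papilla cells, and *Tap2* 1.37 in the hair matrix and -0.88 in dermal fibroblasts. *Psmb8* was 3.46 in melanocytes and -1.14 in dermal fibroblasts, and *Psmb10* 1.96 in cluster 11 and -0.76 in cluster 16, an unnamed cluster led by *Krt35*.

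In AA+Ab over Neg, cluster 11 and dermal fibroblasts went apart for *H2-K1* (1.72 and -0.79), *Tap2* (0.70 and -1.28) and *Psmb8* (1.48 and -0.95), and *Nlrc5* was 1.20 in cluster 11 and -0.998 in cluster 20, an unnamed cluster led by *Krt24*. In AA+Ab over AA, *B2m* was 0.75 in skeletal muscle cells (epidermal RNA could bring up to 34.3 of 140 CPM in AA and 15.4 of 236 in AA+Ab) and -1.27 in cluster 6, and *Psmb10* was 0.96 in cluster 16 and -1.38 in cluster 11.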

How the results depend on the processing

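No paired analysis was possible because each group is 1 pooled library. Fewer than 20 UMIs lie behind *Psmb10* and *Nlrc5* in cluster 11 of Neg, and counting error is the only error that these data measure. Counts of the 10 genes past 1.5-fold moved by over 1.5 times as follows; the cause was not tested. For AA over Neg, the hair matrix count of 8 was 3 with doublets kept, 5 with cells thinned to 1000 UMIs and 4 at 2-fold, that of cluster 11 (10) was 1 with root sheath cells added, and the epidermal count of 0 was 1 (*Psmb10*) with immune response genes kept for clustering, thinned cells or median-of-ratios size factors. For AA+Ab over Neg, the cluster 11 count of 8 was 0 with root sheath cells added and 5 at 2-fold, and the hair matrix count of 0 was 1 at a mitochondrial limit of 5% or with immune response genes kept, and 2 in thinned cells or with epidermal RNA subtracted (1 higher and 1 lower). For AA+Ab over AA, the cluster 11 count of 5 was 0 with classes from marker UMIs of each cell or root sheath cells added and 2 without cells holding an immune marker UMI or at 2-fold; the hair matrix count of 9 was 5 with doublets kept; and the epidermal count of 0 was 1 (*Psmb10*) with doublets kept, a mitochondrial limit of 5%, resolution 0.4, immune response genes kept or neighbouring clusters added.

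Single log2 ratios turned sign as follows. In thinned cells, *Nlrc5* was -0.17 (AA over Neg, hair matrix) and -0.51 (AA+Ab over Neg, cluster 11), *Psmb9* 0.0436 (AA+Ab over AA, cluster 11) and *Tap1* 1.19 (AA+Ab over AA, hair matrix). With classes from marker UMIs of each cell, AA+Ab over AA in the bulge class was 0.0494 for *Tap1*, 0.0873 for *Psmb8*, 0.0290 for *Psmb9* and 0.53 for *Nlrc5*, and *Psmb10* was above the epidermis by 0.53 in Neg and 0.60 in AA+Ab. With root sheath cells added to cluster 11, *Nlrc5* was above the epidermis by 0.22, 0.0218 and 0.42 in Neg, AA and AA+Ab, and *Psmb10* by 0.44 in AA+Ab. Of the other ratios between libraries, 872 stayed within their counting interval and 287 left it without a change of sign in a called value. Of the other ratios between populations of 1 library, 599 stayed within it and 409 left it without such a change. The alternatives with root sheath or other neighbouring clusters added and with epidermal RNA subtracted were chosen after seeing the data.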

Other observations

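T cells (103, 361 and 220) held *B2m* at 1887 CPM in Neg, 2285 in AA and 2355 in AA+Ab, and *H2-K1* at 1457, 1754 and 1620. The largest ratio of the 10 genes for AA over Neg there was that of *Tap2*, 1.47, on 29 and 99 UMIs, where the median log2 ratio of all genes was 0.13. Dermal papilla cells, the mesenchymal cells at the base of the follicle, numbered 19, 94 and 60, with *B2m* at 708, 448 and 474 CPM.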
